A study of Mus musculus with 6 samples.

Results

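The S100 proteins of the epidermal differentiation complex were described in embryonic mouse skin through 10 genes, S100a3, S100a4, S100a6, S100a8, S100a9, S100a10, S100a11, S100a13, S100a14 and S100a16. The members were all probe sets that the platform annotation assigned to exactly 1 of these symbols, a rule that used no measured value. The genes themselves were chosen with earlier results of these data known. They came to 12 probe sets for 9 of the 10 genes, out of 18193 genes that had such a probe set. The S100a11 probe set was shared in the annotation with a pseudogene and a predicted gene, so it is named without a value. There were 3 samples of Tcfap2c mutant skin and 3 samples of control skin, all at embryonic day 16.5, each on 1 Affymetrix array. The sample titles do not say whether a sample is 1 embryo or a pool. Tcfap2c (current symbol Tfap2c) is the gene for AP-2 gamma, a DNA-binding regulator of the surface ectoderm. The allele, any Cre driver, the strain and the genotype of the controls are not given in the sources used here, and the description field of the control samples also mentions the mutation. Nothing says that a group's samples were from different litters, so the p-values cover only the variation among these 6 arrays, which may be partly technical.

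S100 proteins are small calcium-binding proteins with EF-hand motifs. Most form dimers, expose a binding surface when calcium is bound, and then attach to target proteins such as annexins, myosin or receptors. In the epidermis, several are made by differentiating keratinocytes, and S100a8 and S100a9 are known as alarm proteins of stressed keratinocytes and of neutrophils. Most S100 genes lie in the epidermal differentiation complex on mouse chromosome 3. In the RefSeq gene table (GRCm38.p6) the order of the members was S100a13, S100a14, S100a16, S100a3, S100a4, S100a6, S100a8 and S100a9, and, beyond 56 other protein-coding genes, S100a11 and S100a10.

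Values are MAS5 signals, linear intensities that were scaled to a trimmed mean of 500 on every array. Mutant sample 1 stood apart from the other 5 arrays, with a mean correlation of 0.94 with the others, against at least 0.961 for each of them. Its summed signal over 9 marker genes of decidua and uterus was 73253, against 2263 to 2656 in mutant samples 2 and 3 and 2299 to 2847 in control samples. Mutant sample 1 held the highest signal for all of these genes but Prl3c1, which was dim (2.18 in that sample, at most 40.4 elsewhere). Its summed signal over 7 basal keratinocyte genes was 35998, against 54619 and 66722 in the other mutant samples and 54131 to 59349 in control samples. S100g, an S100 gene of intestine and uterus outside the complex, had 892.5 in mutant sample 1 and at most 5.66 in the other 5 arrays. Results are therefore given with and without mutant sample 1. The part of this material in the results was not tested. Tfap2c itself had 1596, 1392 and 1247 in mutant samples, against 1330, 1347 and 1193 in control samples on its brightest probe set (log2 difference 0.12, limma adjusted p = 0.9999). Without knowledge of the altered part of the gene, this signal does not check the labels.

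No S100 member passed the test across all genes. The test used log2(signal + 24.48) and those probe sets whose mean over the 6 arrays was above the middle of all probe sets, a signal of about 114.5, and a gene with several probe sets is given by its brightest. With limma and Benjamini-Hochberg adjustment over all probe sets, 0 of 11 tested member probe sets had an adjusted p under 0.05, where 1 of 22518 probe sets tested did (0.00444%). At an unadjusted p under 0.05 there was 1 of 8 tested member genes, S100a6, against 3.42% of all probe sets tested. Its difference was positive, and 1.45% of probe sets reached that p in the same direction. Of the 8 genes, 7 had a negative and 1 a positive difference, while 55.6% of all probe sets tested were negative. The median difference of the members was -0.15 on the log2 scale, against -0.02 over all probe sets tested. Without mutant sample 1, the split was 4 negative and 4 positive (52.3% of all probe sets were negative) with a median of -0.05, and 0 member probe sets passed, against 0.173% of all. Then 3 member genes, S100a4, S100a6 and S100a8, lay at an unadjusted p under 0.05, against 7.15% of all probe sets. In whole skin, fewer cells of a type and less RNA per cell cannot be told apart.

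**Figure D1:**
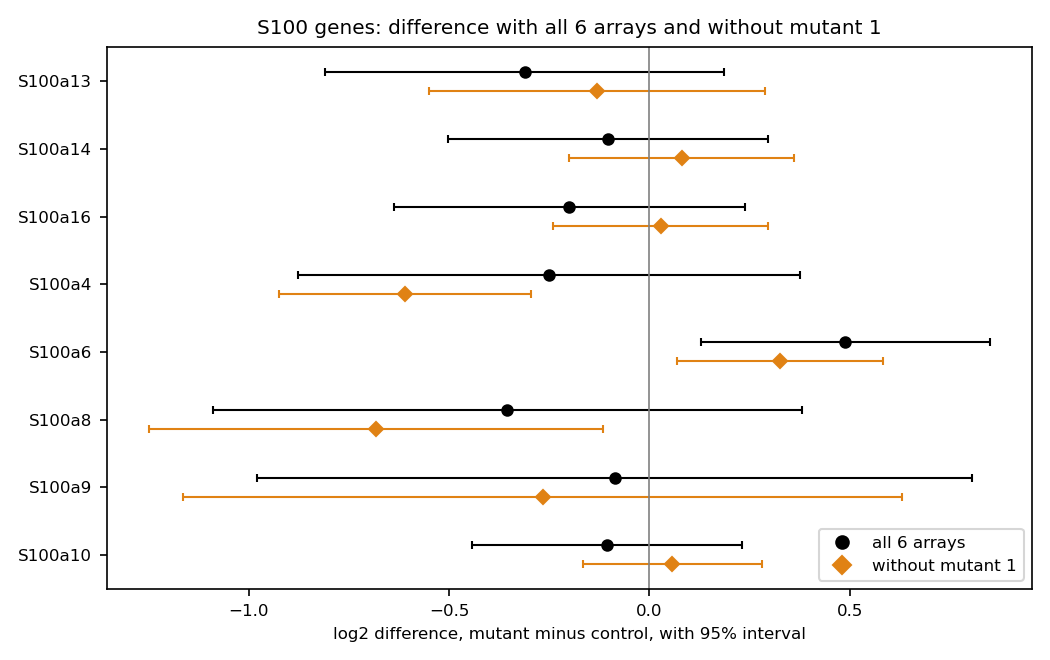
Log2 difference (mutant minus control, horizontal axis) of the 8 tested S100 genes in their order on the chromosome, with limma 95% intervals, from all 6 arrays (black) and without mutant sample 1 (orange). S100a6 lies at 0.49 and 0.33, S100a4 at -0.25 and -0.61, and the intervals of S100a10, S100a13, S100a14 and S100a16 include 0 in both fits.

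S100a6, also called calcyclin, binds annexins and the ubiquitin-pathway adaptor Cacybp and is abundant in proliferating epithelium and in fibroblasts. Its probe set had signals of 9432, 6288 and 7166 in mutant samples 1, 2 and 3, against 5769, 5351 and 4962 in control samples 1, 2 and 3. Every mutant sample lay above every control sample. S100a6 was the 1 tested member gene without overlap, while 8.33% of all probe sets tested had none and 3.3% had none with the mutant samples higher. The mean signal was 7628 ± 1622 over the mutant samples, against 5361 ± 404 over the control samples (SD, n = 3 per group). On the log2 scale the difference was 0.49 (SE 0.16, 95% interval 0.13 to 0.85), a fold of 1.40, with an unadjusted p of 0.0135 and a limma adjusted p of 0.9999. The highest S100a6 signal was in mutant sample 1, the array with the decidual and uterine transcripts. Without it, mutant samples 2 and 3 still lay above the 3 control samples, the difference was 0.33 (95% interval 0.07 to 0.58), and the limma adjusted p was 0.583. In the same comparison without mutant sample 1, 22.7% of all probe sets had no overlap.

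The profile of S100a6 over the 6 arrays was compared with those of 11581 other genes, each centred on its own mean log2 signal. The smallest root mean square distances were those of Igf2r, the receptor for mannose 6-phosphate and insulin-like growth factor 2 (0.068), of Prelp, a matrix proteoglycan (0.083), and of S100a1 (0.083). S100a1, the S100 gene next to S100a13, had 576.9, 393.6 and 464.0 in mutant samples, against 315.2, 326.5 and 326.9 in control samples. Of 6 S100 genes listed besides the members, 4 had a probe set and S100a1 alone passed the filter. Its groups did not overlap either, and its difference was 0.52 (SE 0.18, limma adjusted p = 0.9999). The other tested probe set of S100a1 gave a difference of 0.27. These likenesses rest on 6 arrays in which mutant sample 1 was the highest for all 4 genes.

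Since the study altered an AP-2 factor, the 250 bases before each RefSeq start were searched for the AP-2 consensus GCCNNNGGC and for GCCNNNNGGC, which read the same on both strands. The promoter table held 12 starts of 8 members and none for S100a10 and S100a14. The shorter form was found in 3 of the 12, at S100a8, at S100a9 and at 1 of 4 starts of S100a3, while 13.7% of 32851 promoters in the table held it. The longer form was in 0 of the 12 and in 12.3% of all. At least 1 of the forms was in 3 of the 12 and in 23.0% of all, so the members lay near the share of all promoters. The promoters of S100a6, the member with the smallest p, and of the S100a8 and S100a9 pair are shown from RefSeq (GRCm38.p6), each 5′ to 3′ on its gene's strand and ending 1 base before the start, with a motif match in capitals. S100a6 lies at chr3:90612644-90612893 on the plus strand, S100a8 at chr3:90668821-90669070 on the plus strand and S100a9 at chr3:90695722-90695971 on the minus strand.
S100a6: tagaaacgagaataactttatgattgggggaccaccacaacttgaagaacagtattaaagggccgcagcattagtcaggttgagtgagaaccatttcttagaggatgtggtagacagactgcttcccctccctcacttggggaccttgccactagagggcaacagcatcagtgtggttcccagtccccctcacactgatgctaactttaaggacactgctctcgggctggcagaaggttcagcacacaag
S100a8: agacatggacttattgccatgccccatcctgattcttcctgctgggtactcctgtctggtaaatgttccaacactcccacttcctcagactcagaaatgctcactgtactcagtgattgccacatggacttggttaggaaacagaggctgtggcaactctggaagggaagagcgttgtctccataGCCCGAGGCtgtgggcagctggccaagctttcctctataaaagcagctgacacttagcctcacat
S100a9: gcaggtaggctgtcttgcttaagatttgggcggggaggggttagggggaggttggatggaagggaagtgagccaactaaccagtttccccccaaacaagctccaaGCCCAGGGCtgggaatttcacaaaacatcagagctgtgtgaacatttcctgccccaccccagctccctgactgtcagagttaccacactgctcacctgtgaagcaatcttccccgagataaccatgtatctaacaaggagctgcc
The S100a6 window held neither form, and a match is a description of the letters, not a bound site.

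S100a8 and S100a9 encode the subunits of calprotectin, which binds calcium, zinc and manganese and is released as an alarm signal. S100a8 had signals of 955.0, 420.3 and 527.4 in mutant samples, against 513.6, 964.8 and 919.2 in control samples. S100a9 had 623.9, 332.2 and 533.8 in mutant samples, against 250.3, 752.6 and 699.8 in control samples. For both genes the same arrays formed the upper part, control samples 2 and 3 with mutant sample 1, and the same arrays the lower part, mutant samples 2 and 3 with control sample 1, so the groups overlapped. The log2 difference was -0.35 for S100a8 (SE 0.32, 95% interval -1.09 to 0.38). For S100a9 it was -0.09 (SE 0.39, 95% interval -0.98 to 0.80), and the limma adjusted p was 0.9999 for each. Without mutant sample 1, S100a8 lay at -0.68 (95% interval -1.25 to -0.12, unadjusted p = 0.0232, limma adjusted p = 0.609), and S100a9 at -0.27 (95% interval -1.16 to 0.63). The S100a8 groups still overlapped, since mutant sample 3 lay above control sample 1.

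S100a9 had the widest span among the tested member genes, with the highest array 3.01 times the lowest, and both of those arrays were control samples. S100a8 spanned 2.30 times, S100a10 1.43 times. Because neutrophils also make these alarm proteins, 12 neutrophil markers were listed, of which 10 had a probe set and 1, Ngp, passed the filter on low signals. Ngp, a granule protein of maturing neutrophils, had 350.0, 194.4 and 160.9 in mutant samples, against 150.4, 270.4 and 290.9 in control samples. Its 3 highest arrays were those of S100a8 and S100a9, and its difference was -0.03 (limma adjusted p = 0.9999). The summed signal of the 10 genes was 803 to 1038 in mutant samples, against 658 to 826 in control samples, and the 9 genes below the filter had highest signals from 22.0 (Cxcr2) to 206.5 (Camp). Among those 9, the groups did not overlap for Mpo, with 83.5, 136.9 and 161.9 in mutant samples, against 74.2, 45.2 and 48.2 in control samples. The same held for Mmp9, with 108.8, 53.8 and 104.9 in mutant samples, against 11.2, 33.6 and 53.5 in control samples. For Mmp9 the lowest mutant signal was close to the highest control signal. The groups overlapped for the rest of the 9. Over all probe sets tested, which lie above the filter, 8.33% had no overlap. The part of neutrophils in the signals of S100a8 and S100a9 was not tested.

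S100a4, known for binding non-muscle myosin and expressed in fibroblasts and macrophages, had 1484, 754.7 and 634.7 in mutant samples, against 1135, 1024 and 1050 in control samples. Mutant sample 1 was the highest of the 6 arrays and mutant samples 2 and 3 were the lowest, with the control samples close together between them. The log2 difference was -0.25 (SE 0.28, 95% interval -0.88 to 0.38, limma adjusted p = 0.9999). Without mutant sample 1 it was -0.61 (SE 0.14, 95% interval -0.92 to -0.29), the groups did not overlap, the unadjusted p was 0.00159 and the limma adjusted p was 0.233. In that comparison, 22.7% of all probe sets tested had no overlap and 7.15% had an unadjusted limma p under 0.05. S100a4 and S100a6, which have S100a5 between them in the gene order, had differences of opposite sign in both fits. The difference between the 2 genes was not tested.

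Fibroblast and macrophage markers were set beside S100a4. The summed signal of 8 fibroblast genes was 136805 to 140480 in mutant samples, against 129487 to 147391 in control samples. That of 9 macrophage genes was 15506, 7973 and 11347 in mutant samples, against 10404 to 11038 in control samples, so mutant sample 1 was the highest there too, while mutant sample 3 lay above the control samples. A large part of this sum was Csf1r, with 8353, 3951 and 4899 in mutant samples, against 4619, 4310 and 4549 in control samples. C1qa, C1qc, Fcgr1 and Aif1 were not the highest in mutant sample 1. The part of macrophages in the S100a4 signal was not tested.

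**Figure D2:**
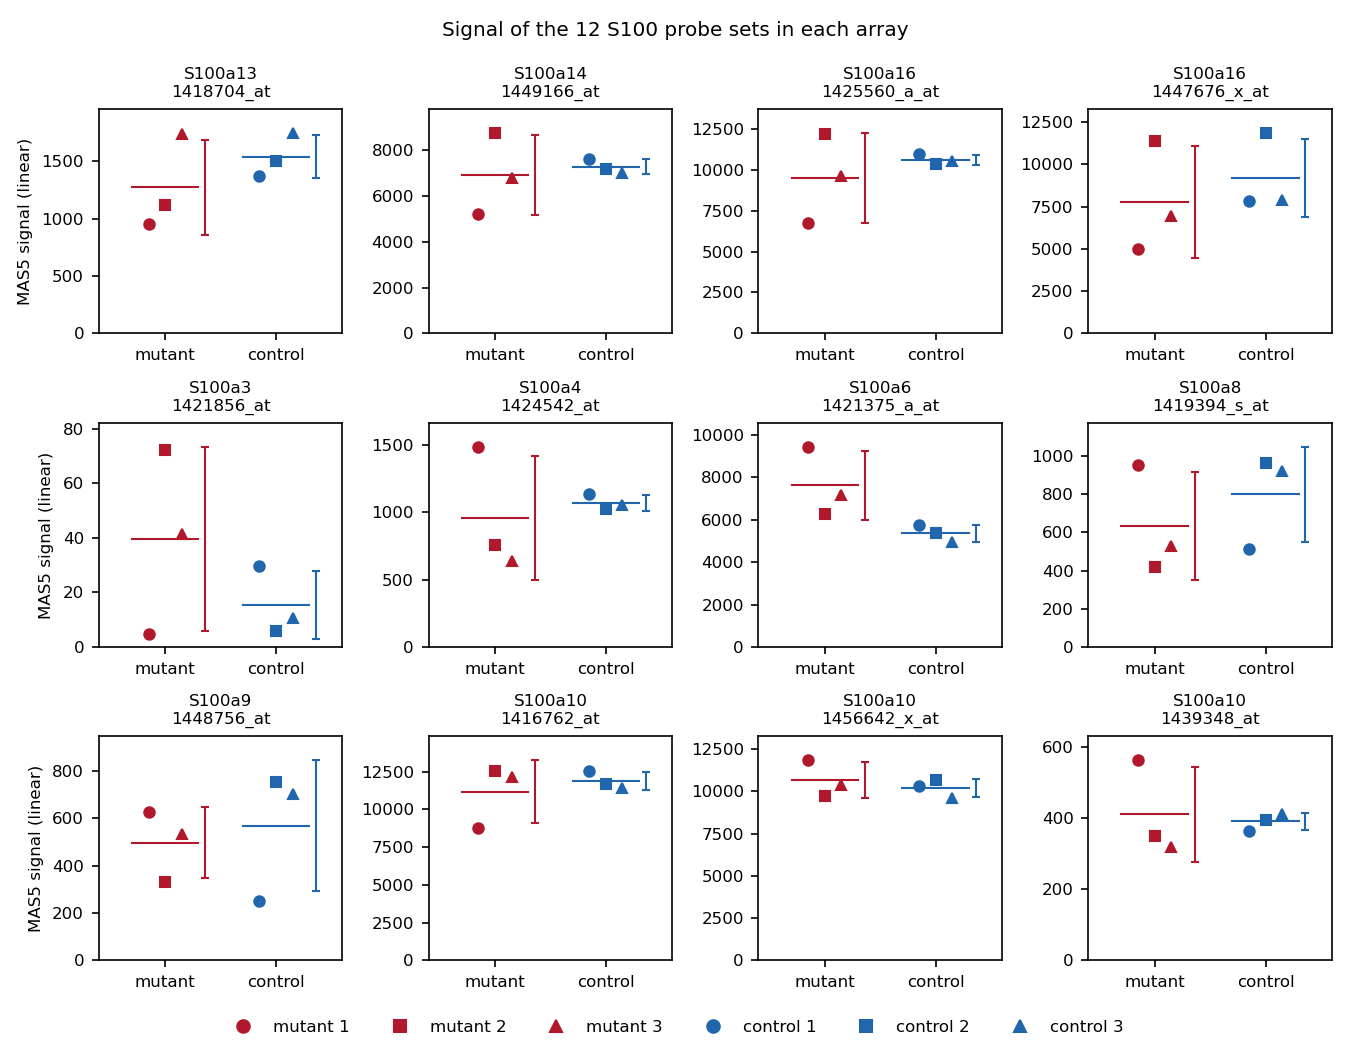
MAS5 signal (linear vertical axes starting at 0) of the 12 S100 probe sets in each array, mutant samples left and control samples right, with symbols for the sample number, a line at the mean and a bar of 1 SD (n = 3 each). The S100a6 signals do not overlap, mutant sample 1 is the highest for S100a4 and the lowest for S100a14 and S100a16, and S100a9 spreads from 250.3 to 752.6 among control samples.

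S100a10, the light chain that links annexin A2 into a heterotetramer at the membrane, was read by 3 probe sets. The brightest had 8798, 12579 and 12163 in mutant samples, against 12549, 11720 and 11416 in control samples, a log2 difference of -0.11 (SE 0.15, 95% interval -0.44 to 0.23, limma adjusted p = 0.9999). The others gave 0.06 and 0.03. The probe sets disagreed on mutant sample 1, which was the lowest array on the brightest probe set and the highest on the other two. Without that sample the brightest gave 0.06 and the others -0.02 and -0.21. The partner Anxa2 was also bright, with 22107, 26556 and 23209 in mutant samples, against 23772, 21702 and 20513 in control samples, a difference of 0.12 that did not pass the test.

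S100a14 and S100a16 lie next to each other in the gene order and were both bright. S100a14 had 5231, 8733 and 6779 in mutant samples, against 7637, 7192 and 7008 in control samples. S100a16 had 6722, 12166 and 9581 in mutant samples, against 10937, 10331 and 10516 in control samples on its brightest probe set. In both genes mutant sample 2 was the highest array and mutant sample 1 the lowest, and the control samples lay between them. The differences were -0.10 for S100a14 (SE 0.18, 95% interval -0.50 to 0.29) and -0.20 for S100a16 (SE 0.19, 95% interval -0.64 to 0.24), each with a limma adjusted p of 0.9999. Without mutant sample 1 they were 0.08 and 0.03. Of 7 basal keratinocyte genes, 5 (Krt5, Krt14, Krt15, Trp63 and Col17a1) were likewise the lowest in mutant sample 1 and the highest in mutant sample 2. Itga6 had these ends turned round and Itgb4 was the lowest in mutant sample 3. The same pattern was found for the brightest S100a10 probe set, for the dim S100a3 and for 2 of 8 suprabasal keratinocyte genes. Over all probe sets tested, mutant sample 1 was the lowest in 31% and mutant sample 2 the highest in 19.3%. The share with both was not counted. The second S100a16 probe set gave -0.30 (95% interval -0.94 to 0.35), with 11820 in control sample 2 as its highest signal.

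S100a13, which takes part in the export of fibroblast growth factor 1 and interleukin 1 alpha without a signal peptide, had 953.5, 1121 and 1743 in mutant samples, against 1374, 1505 and 1744 in control samples. The lowest arrays were mutant samples 1 and 2, while mutant sample 3 nearly equalled control sample 3. The difference was -0.31 (SE 0.22, 95% interval -0.81 to 0.19, limma adjusted p = 0.9999), and without mutant sample 1 it was -0.13 (95% interval -0.55 to 0.29). S100a3, a cysteine-rich protein of the hair cuticle, was dim, with 4.74, 72.3 and 41.5 in mutant samples, against 29.5, 6.01 and 10.5 in control samples. Its groups overlapped and its mean lay below the filter on low signals, so it was left out of the test. Fitted without a filter, its difference was 0.56 (95% interval -0.46 to 1.59).

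**Figure D3:**
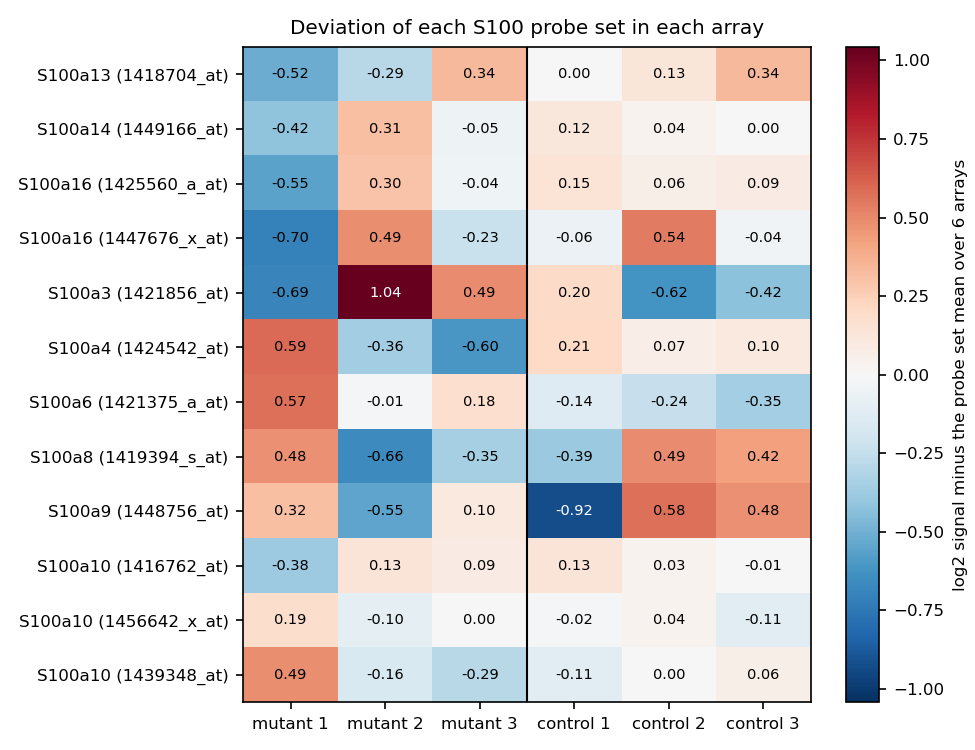
Log2 signal of each S100 probe set minus its mean over the 6 arrays (colour and printed number), with mutant samples left of the line and control samples right of it. Mutant sample 1 is at 0.59 for S100a4 and 0.57 for S100a6 and at -0.42 for S100a14 and -0.55 for the brighter S100a16 probe set, and the columns of mutant samples 1 and 2 have opposite signs for most probe sets.

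Across the 8 tested members, mutant sample 1 was the highest array for 2 and the lowest for 4. Over all probe sets tested, it was the highest or the lowest in 55.6%, so that array lay at an end for many genes besides the S100 members. The array nearest to it in this respect was mutant sample 2, with 41.3%. The control samples were at an end in 20.1% to 29.9%. The absolute difference of S100a6 was larger than that of 94.97% of all probe sets tested. For S100a10 and S100a14 these shares were 43.2% and 42.5%.

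Related genes were described from lists chosen with earlier results known, by counts and medians. S100-fused proteins carry an S100 domain before long repeats, and their genes lie in the stretch between S100a9 and S100a11. Of 7 listed, 4 were tested, and 0 passed with all 6 samples. Their differences were negative with a median of -0.94, but Rptn passed the filter on low signals through the control samples, and without a filter, where Tchhl1 joined, the median was -0.16. Flg, the filaggrin precursor, had 2967, 647 and 252 in mutant samples, against 11500, 8080 and 13151 in control samples, a difference of -3.70 (SE 0.69, limma adjusted p = 0.426). Its groups did not overlap, while 8.33% of all probe sets tested had no overlap. Without mutant sample 1 its limma adjusted p was 0.000525, where 0.173% of all probe sets tested passed the threshold. Rptn, or repetin, had 110.5, 71.4 and 46.0 in mutant samples, against 453.0, 230.4 and 247.8 in control samples, a difference of -1.73 (limma adjusted p = 0.426). Hornerin (Hrnr) and trichohyalin (Tchh) lay at -0.04 and -0.16. The difference between fused and classic S100 genes was not tested.

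Of 10 binding partners of S100 proteins, 8 were tested, 6 positive and 2 negative, with a median of 0.09 and 0 past the threshold. Fgf1, the growth factor that S100a13 helps to export, is among the 6 positive partners. It had 167.8, 240.3 and 152.3 in mutant samples, against 105.0, 155.5 and 51.6 in control samples. Its difference was 0.78 (SE 0.34, limma adjusted p = 0.9999), and 0.45 without control sample 3. Fgf1 passed the filter on low signals through the mutant samples, so its value is no support for a difference. Anxa1, an annexin that binds S100a11, had 22662, 24400 and 21945 in mutant samples, against 18587, 20105 and 20827 in control samples, a difference of 0.21 (95% interval -0.01 to 0.44) with no overlap. The groups did not overlap for 2 partners with lower mutant signals either, while 8.33% of all probe sets tested had no overlap. Cacybp, the S100a6 partner, had 4257, 3844 and 4159 in mutant samples, against 4369, 4588 and 4381 in control samples (difference -0.12), and Anxa6 had 2101, 2256 and 2258 in mutant samples, against 2374, 2592 and 2642 in control samples (difference -0.20). Of 5 receptors, 4 were tested, 2 positive and 2 negative, with a median of 0.00 and 0 past the threshold. Bsg, the membrane protein basigin, had 3853, 10904 and 9563 in mutant samples, against 8409, 7250 and 9982 in control samples (difference -0.20), so its negative sign rested on mutant sample 1 (0.27 without it). Nptn, or neuroplastin, lay at 0.08.

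The keratinocyte stress list holds keratins and secreted proteins that are known to accompany S100a8 and S100a9 in wounded skin. Of its 10 genes, 9 were tested, 4 positive and 5 negative, with a median of -0.22 (-0.44 without mutant sample 1) and 0 past the threshold. Krt16 had 247.7, 229.5 and 251.7 in mutant samples, against 370.1, 333.2 and 411.8 in control samples, without overlap, a difference of -0.56 (SE 0.17, limma adjusted p = 0.9999). Krt17 had 671, 1760 and 1373 in mutant samples, against 2390, 1552 and 2534 in control samples, a difference of -0.83 (SE 0.33, limma adjusted p = 0.9999) that was -0.44 without mutant sample 1. At an unadjusted p under 0.05 there were 0 positive and 3 negative genes of the 9, against 1.45% and 1.97% of all probe sets tested. The groups did not overlap for 2 of the 9, both lower in mutant samples, while 8.33% of all probe sets tested had no overlap in either direction. Lcn2 and Slpi had the largest positive differences, 0.80 each, and both were the highest in mutant sample 1 (1477 and 570.1). Lcn2 passed the filter through that array.

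**Figure D4:**
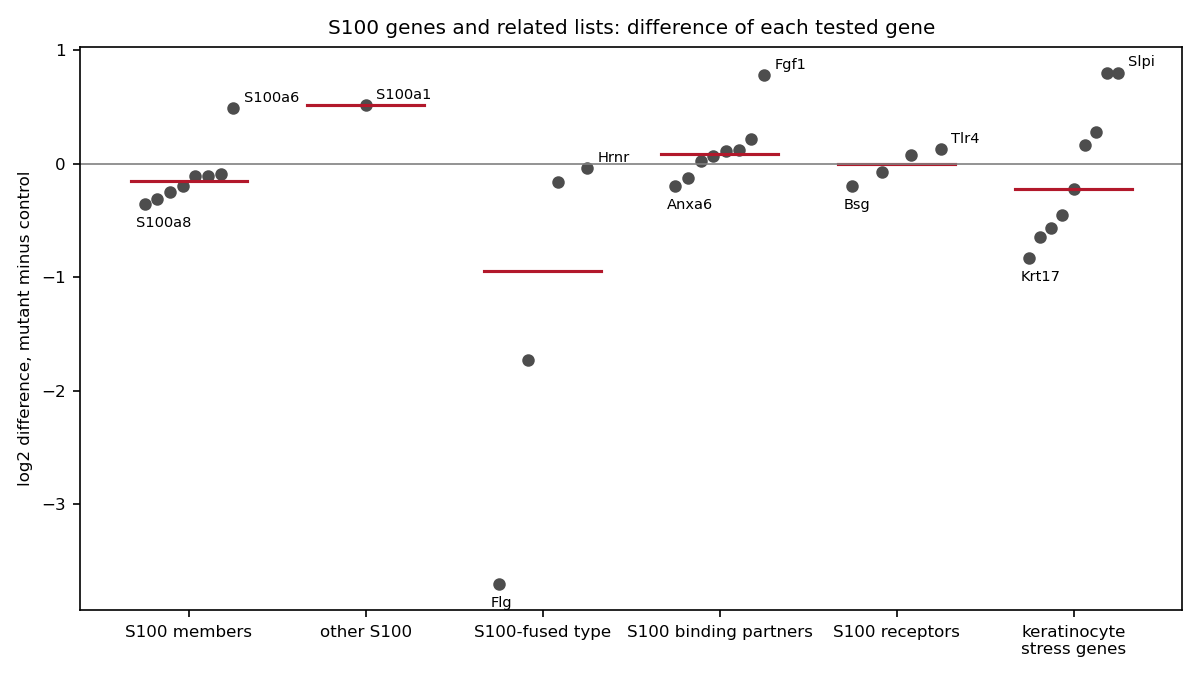
Log2 difference (mutant minus control, vertical axis) of each tested gene in the S100 members and 5 related lists, 1 point per gene, with a red line at the list's median and the names of the genes at both ends. The members lie between -0.35 and 0.49, and Flg is at -3.70 among the S100-fused genes.

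Markers of the skin's cell types gave medians of -0.11 for 7 basal and -0.04 for 8 suprabasal keratinocyte genes, -0.02 for 8 fibroblast genes and 0.03 for 9 macrophage genes. The medians were 0.22 for 4 Schwann cell genes, -0.15 for 6 melanocyte genes, -0.05 for 6 endothelial genes and -0.12 for 8 skeletal muscle genes. The 6 tested decidual and uterine genes had a median of 1.45 with all arrays, which was -0.14 once mutant sample 1 was left out, with Prl8a2, a decidual hormone, at 14204 in that sample and at most 61.2 elsewhere. Leaving that sample out also turned the sign of the basal (0.012), suprabasal (0.076), endothelial (0.081) and macrophage (-0.045) medians, and gave -0.03 for fibroblast, 0.19 for Schwann cell, -0.17 for melanocyte and -0.09 for skeletal muscle genes. No gene of these lists passed the threshold with all 6 samples.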

How the data were processed

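Skin RNA of 6 samples was measured on Affymetrix arrays. The authors' deposited values are MAS5 signals, a linear intensity per probe set, and MAS5 is named without a version per the submitters' processing notes. Every column had a mean of 500 once the outer 2% on each side were trimmed. Detection calls were not used here. Names came from the platform annotation, updated by gene identifier through RefSeq (GRCm38.p6), which was used otherwise for gene order and promoters only.

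Signals were taken as log2(signal + 24.48), the 20th percentile, which understates folds of dim probe sets. Of 45037 probe sets other than array controls, 22518 had a mean log2 above the median (a signal of about 114.5) and entered the test, limma 3.58.1 under R 4.3.3 (trend, two-sided, Benjamini-Hochberg over all tested, threshold 0.05). A gene is its probe set with the highest mean. The number of arrays limits the precision.

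The members and lists were chosen with earlier results of these data known. The naming rule covered all members, Tfap2c, the 2 genes with the smallest p of each other list, and the 3 profiles nearest to the member with the smallest p. For cell type lists, only Ngp, Prl8a2, Krt5, Itgb4 and Fcgr1 of these are printed. S100g, Anxa2, Anxa6, Cacybp, Hrnr, Tchh, Tchhl1, Mpo, Mmp9, Camp, Cxcr2 and the other basal keratinocyte genes fall outside that rule and were picked with their values known. The same holds for Csf1r, C1qa, C1qc, Aif1, Lcn2, Slpi and Prl3c1. Alternatives were other pseudocounts, filters, normalizations, variance models, the replicate block, other probe sets and each sample left out. Figures were drawn with matplotlib 3.10.9.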

Additional observations from a re-analysis of the deposited data

How the results depend on the processing

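All 17 alternatives were run, and no S100 member probe set passed an adjusted p of 0.05 in any (limma, lowest adjusted p of a tested member gene 0.163, S100a6 with array weights). The mean over probe sets of a gene averaged differences only and kept the p-values of the main fit, so it could not change a call. S100a6 kept a positive difference (0.33 to 0.62) and S100a8 a negative one (-0.68 to -0.11) in the 16 alternatives that tested them, since dropping _s_at, _x_at and _a_at probe sets removed both genes. S100a4 was negative in all 17 (-0.62 to -0.01). The causes of the changes below were not tested.

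Member genes at an unadjusted p under 0.05 numbered 1 with all samples, 2 with array weights (S100a4 and S100a6; weights 0.257, 0.56 and 3.13 for mutant samples 1, 2 and 3), and 0 when probe sets ending in _s_at, _x_at or _a_at were dropped, which removed S100a6. With 1 sample left out there were 0 (without control sample 3) to 3 (without mutant sample 1), and 2 without mutant sample 2 (S100a6 and S100a16) or 3 (S100a6 and S100a13). The member median was -0.19 to -0.05 with 1 sample left out. Over all probe sets, 106 passed with array weights, 0 with the filter at the 75th percentile and 1 to 39 with 1 sample left out (39 without mutant sample 1, 3 without control sample 2, 2 without mutant sample 2).

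A replicate block on the sample number gave 8 probe sets past the threshold, 0 of them members. The correlation of deviations between arrays of the same number was -0.0525, -0.0735 and 0.115, against -0.177 to 0.172 between arrays of different numbers. These few values cannot tell whether samples of the same number share a litter or a batch. The block changed no call of a member.

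Other signs were found in 8 of 132 member values, in 5 genes, none past the threshold. With array weights S100a10 was at 0.0082 and S100a13 at 0.044. With 1 sample left out, the ranges were -0.20 to 0.057 for S100a10, -0.29 to 0.081 for S100a14, -0.40 to 0.028 for S100a16 (each highest without mutant sample 1) and -0.57 to 0.18 for S100a9 (positive when mutant sample 2, control sample 2 or control sample 3 was left out). Among other genes, Bsg was at 0.13 and Tfap2c at -0.0051 with array weights, Nptn at -0.011 as a mean over probe sets and Ngp at 0.0078 with quantile normalization. With 1 sample left out, Bsg ranged from -0.48 to 0.27, Ngp from -0.33 to 0.18 and Prl8a2 from -0.0098 to 3.80.

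List medians moved by more than the spread between replicates in 9 of 253 cases. The S100-fused median was -0.16 without a filter and -1.87 with the stricter one, and other S100 genes were at 0.27 without _s_at, _x_at and _a_at probe sets. Partners were at -0.0088 with array weights, Schwann cell genes at 0.13 as a mean over probe sets, and fibroblast genes at -0.10 without those same probe sets. With 1 sample left out the medians ranged from -0.098 to 0.016 for fibroblast, from -0.44 to -0.094 for keratinocyte stress and from -0.049 to 0.20 for receptor genes. Without mutant sample 1 or with array weights Flg passed the threshold (limma adjusted p = 0.000525 and 0.00397), and with weights so did Rptn (0.0128). Rptn entered the test only through its control signals, so its pass is no support for a difference.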
